A study of Drosophila melanogaster with 12 samples.

Results

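The testis-specific proteasome paralogs of Drosophila melanogaster are additional copies of proteasome subunit genes whose expression is known to be restricted to, or strongly enriched in, the male germline. The 10 genes described here are Prosalpha4T1, Prosalpha4T2, Prosalpha3T, Prosalpha6T, Prosbeta2R1, Prosbeta2R2, Prosbeta4R1, Prosbeta5R1, Rpt3R and Rpt4R. They were picked out by gene symbol, and each had 1 probe set carrying that symbol alone among the 18769 probe sets other than controls. Of these 10 probe sets, 9 were bright enough to test. Each paralog was set beside its parent, the ubiquitous subunit it was copied from, which gave 8 parent genes because Prosalpha4 and Prosbeta2 each have a pair of paralogs among the 10.

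The proteasome degrades ubiquitin-tagged proteins. Its core particle is a barrel in which rings of alpha subunits, which gate entry, enclose rings of beta subunits, some of which carry the proteolytic sites. The regulatory particle at the barrel's end holds a ring of Rpt ATPases, which unfold substrates, and Rpn subunits, which bind and deubiquitinate them. In fly testes many of these subunits have a paralog that appears during spermatogenesis, and Prosalpha6T is known to be needed for normal sperm formation. Translation in spermatogenic cells is often delayed: many mRNAs made in spermatocytes are stored and translated in spermatids.

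RNA came from whole males of w1118, a laboratory strain with white eyes, moved at 1 to 2 days of age to food with 0.25% or 4% yeast extract (YE) and kept there for 6 days. All groups shared strain and sex. Yeast extract is the diet's main protein source, and 0.25% YE is the restricted and 4% YE the rich diet. Extracts of about 100 males were separated on a sucrose gradient read at 252 nm, and RNA was taken from a high fraction (5 or more ribosomes per mRNA) and a low fraction (1 to 4 ribosomes). The 4 groups were the high and low fractions on 0.25% YE and the high and low fractions on 4% YE, with 3 arrays each, 12 in all.

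Testis cells were 1 part of each whole-fly extract, and in such bulk RNA fewer cells of a type and less RNA per cell cannot be told apart. All 28 measured testis markers were above background on at least 1 array, the fewest being 1 of 12 for bam and 5 of 12 for klhl10. Of 10 measured female markers, 3 (Yp1, Cp36 and Vm32E) were above it on no array. The other female markers were above it on at least 1 array, up to 9 of 12 for Yp3, with Cp18 on 5 and Yp2 on 4. The background level was the 95th percentile of each array's control probe sets, and 59.0% to 66.4% of the other probe sets lay above it. Replicates 2 and 3 of each group correlated at 0.979 to 0.988 on the log2 scale, and replicate 1 stood apart from them at 0.859 to 0.943, so values from replicates 2 and 3 only are given beside results that they change most. Intensities below are quantile-normalized, and a level of one probe set is not compared with that of another. The translational index of an mRNA is the log2 ratio of its high-fraction to its low-fraction level. Since the arrays were scaled to each other, it places an mRNA relative to the other mRNAs only. An adjusted p is two-sided, from limma with Benjamini-Hochberg adjustment over all 11262 probe sets tested, and a value under 0.05 is a call. Unless blocking is stated, the fit ignores any pairing of arrays by replicate number.

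Of the 10 paralogs, 8 were above background on all 12 arrays. Their lowest and highest single values were 22.8 and 177 for Prosbeta2R2, 32.0 and 152 for Prosalpha4T2, 33.2 and 224 for Prosbeta5R1, and 38.7 and 103 for Rpt4R. Prosbeta2R1 spanned 49.3 to 128, Prosbeta4R1 spanned 49.0 to 201, Rpt3R spanned 95.7 to 220.5, and Prosalpha6T spanned 187 to 367. Prosalpha3T was above background on 10 of 12 arrays, and its values of 15.1 to 57.2 lay close to the background levels of 13.8 to 24.6. Prosalpha4T1 was above background on only 4 of 12 arrays. Its values were 2.79, 14.7 and 31.5 in the high and -8.00, 24.5 and 27.8 in the low fraction on 0.25% YE. On 4% YE they were 3.39, -2.05 and -5.52 in the high and 12.4, 14.7 and 28.4 in the low fraction. Its mean over all arrays, 12.05, was below the limit of 23.6 for testing, so Prosalpha4T1 has no index here.

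**Figure D1:**
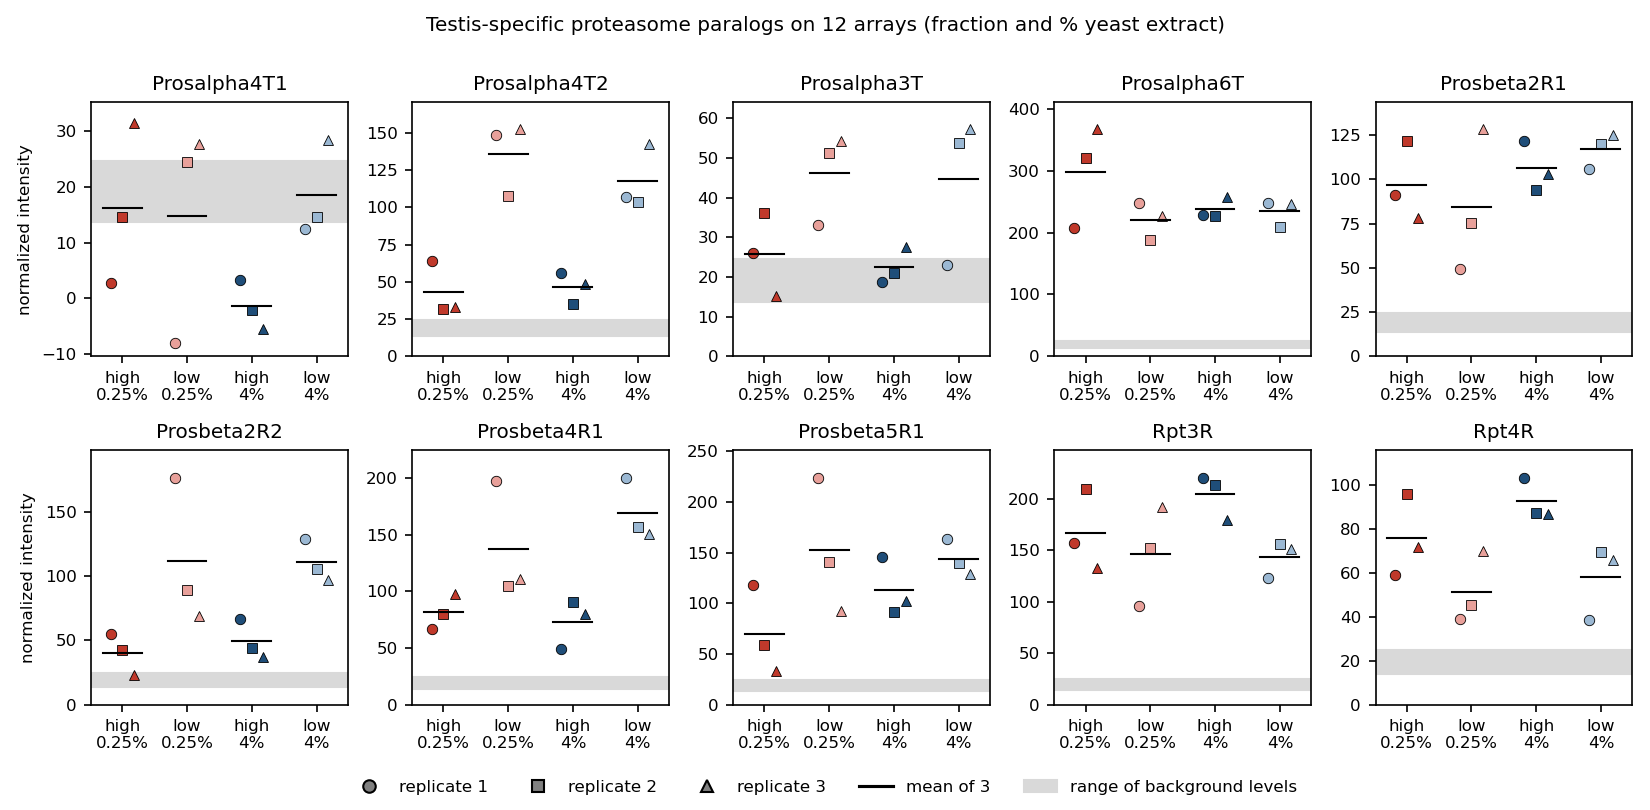
Normalized intensity (vertical axes, linear) of the 10 paralogs in the high and low fractions on 0.25% YE and 4% YE; points are single arrays with the replicate as marker shape, black lines are means of 3, and the grey band spans the background levels of 13.8 to 24.6. Prosalpha4T2 and Prosbeta2R2 lie lower in the high than in the low fraction on both diets, whereas Prosalpha4T1 lies in or near the background band.

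Averaged over both diets, the paralogs split: 5 of the 9 tested lay toward the low fraction, 1 lay toward the high fraction and 3 were not called. Over all probe sets tested, 46.7% were called, 23.6% lower and 23.1% higher. The members' median index was -0.79, against 0.01 for all probe sets tested. The 5 that were lower were Prosalpha4T2 and Prosalpha3T of the alpha ring and Prosbeta2R2, Prosbeta4R1 and Prosbeta5R1 of the beta ring, and the 1 that was higher was the ATPase Rpt4R. On single diets 2 of 9 were called on 0.25% YE (21.4% of all probe sets in either direction, 11.7% lower) and 3 of 9 on 4% YE (34.2%, and 17.9% lower), all of them lower. When replicate numbers were blocked, the counts were 3 on 0.25% YE, 4 on 4% YE and 6 averaged, against 34.9%, 45.3% and 56.6% of all probe sets. On the values as deposited, without scaling between arrays, the median averaged index of all probe sets was 0.36 and that of the members -0.44, and 5 of the 9 lay below the median of all probe sets under either treatment. In the averaged index on those values 38.3% of all probe sets were called, 3459 higher and 854 lower. Of the members 4 were called, 2 lower and 2 higher (Prosalpha6T and Rpt4R). From replicates 2 and 3 alone 7 were called, 5 of them lower, at a background of 70.6%. On the values as deposited no member was called on a single diet, at a background of 14.1% on 0.25% YE and 21.3% on 4% YE.

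Prosalpha4T2, a paralog of the alpha-ring subunit Prosalpha4, had the lowest index of the 9. On 0.25% YE it measured 63.9, 32.0 and 33.0 in the high fraction and 149, 107 and 152 in the low fraction. On 4% YE it measured 56.2, 34.96 and 48.8 in the high and 107, 103 and 142 in the low fraction. Every high-fraction array lay below every low-fraction array on both diets. The index was -1.70 ± 0.30 on 0.25% YE (SE, n = 3 per group, limma adjusted p = 0.0039) and -1.33 ± 0.30 on 4% YE (adjusted p = 0.0051). The average of both was -1.51 ± 0.21 (adjusted p = 0.00016), which corresponds to 2.85-fold less in the high fraction. On the values as deposited, the calls on single diets were lost (adjusted p = 0.0624 on 0.25% YE and 0.137 on 4% YE), and the averaged call held in all 19 alternatives run, with adjusted p values of 1.8e-06 to 0.011.

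Prosalpha3T and Prosalpha6T are the other testis copies of alpha-ring subunits that could be tested. Prosalpha3T measured 26.1, 36.0 and 15.1 in the high fraction on 0.25% YE and 33.2, 51.1 and 54.3 in the low fraction. On 4% YE its values were 18.7, 21.0 and 27.6 in the high and 23.02, 53.7 and 57.2 in the low fraction. On each diet 1 high-fraction array reached above the lowest low-fraction array, so the ranges overlapped. The averaged index of Prosalpha3T was -0.87 ± 0.29 (adjusted p = 0.026), with -0.87 ± 0.41 on 0.25% YE and -0.88 ± 0.41 on 4% YE, neither of which was called (adjusted p = 0.15 and 0.12). The averaged call was lost when 1 of 7 arrays was left out (adjusted p = 0.053 to 0.070), namely replicate 3 of the high and replicates 2 and 3 of the low fraction on 0.25% YE and replicates 1 and 2 of the high and 2 and 3 of the low fraction on 4% YE. On the values as deposited it was also lost (-0.64, adjusted p = 0.20). Without replicate 1 of the low fraction on 4% YE, the index on that diet was -1.29 (adjusted p = 0.027).

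Prosalpha6T did not share that direction. Its intensities on 0.25% YE were 207, 321 and 367 in the high and 247, 187 and 226 in the low fraction, and the ranges overlapped because replicate 1 of the high fraction was low. On 4% YE the high fraction gave 229, 226 and 257 and the low fraction 248, 208 and 247, ranges that also overlapped. The averaged index was 0.21 ± 0.16 (adjusted p = 0.31), with 0.40 ± 0.23 on 0.25% YE (adjusted p = 0.23) and 0.02 ± 0.23 on 4% YE (adjusted p = 0.95). Without replicate 1 of the high fraction on 0.25% YE the index on that diet was 0.65 (adjusted p = 0.032). With replicates 2 and 3 of every group only, a setting added after replicate 1 was seen to stand apart, it was 0.73 on 0.25% YE (adjusted p = 0.0020) and 0.41 averaged (adjusted p = 0.0061), at backgrounds of 57.5% and 70.6%. On the values as deposited the averaged index was 0.61 (adjusted p = 0.039), beside the median of 0.36 for all probe sets.

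Among the beta-ring paralogs, Prosbeta2R1 and Prosbeta2R2 are both copies of Prosbeta2, the subunit with trypsin-like activity, with averaged indices of 0.07 and -1.31. Prosbeta2R2 measured 54.8, 42.2 and 22.8 in the high fraction on 0.25% YE and 177, 89.5 and 68.9 in the low fraction. On 4% YE it measured 66.8, 43.9 and 36.8 in the high and 129, 106 and 96.8 in the low fraction. The high-fraction arrays lay below the low-fraction arrays without overlap on both diets, and replicate 1 was the brightest array of each group. The index was -1.43 ± 0.39 on 0.25% YE (adjusted p = 0.023), -1.19 ± 0.39 on 4% YE (adjusted p = 0.032) and -1.31 ± 0.27 averaged (adjusted p = 0.0021), or 2.48-fold less in the high fraction. The averaged call held in all 19 alternatives (adjusted p = 5.3e-05 to 0.028). The single-diet calls did not: on 0.25% YE the call was lost without replicate 2 or 3 of the high or replicate 1 of the low fraction (adjusted p = 0.066 to 0.094), and on 4% YE without replicate 2 or 3 of the high or any 1 replicate of the low fraction (adjusted p = 0.060 to 0.115).

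Prosbeta2R1 measured 91.2, 122 and 78.4 in the high fraction on 0.25% YE and 49.3, 75.3 and 128 in the low fraction. On 4% YE the values were 122, 93.8 and 103 in the high and 106, 120.3 and 125 in the low fraction. The ranges overlapped on both diets. Its averaged index was 0.07 ± 0.21 (adjusted p = 0.81), and its sign changed with the setting: it was -0.09 without replicate 1 of the low and -0.02 without replicate 2 of the high fraction on 0.25% YE, and -0.16 with replicates 2 and 3 only. The difference between the paralogs Prosbeta2R1 and Prosbeta2R2 was not tested.

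Prosbeta4R1, a copy of Prosbeta4, a beta-ring subunit without a proteolytic site, gave 66.9, 80.0 and 97.99 in the high fraction on 0.25% YE and 197, 105 and 111 in the low fraction. On 4% YE it gave 49.0, 90.5 and 80.1 in the high and 201, 157 and 151 in the low fraction. The fractions did not overlap on either diet, and replicate 1 had the widest gap on both. The index was -1.23 ± 0.30 on 4% YE (adjusted p = 0.0075) and -0.70 ± 0.30 on 0.25% YE, which was not called (adjusted p = 0.11). Averaged, it was -0.97 ± 0.21 (adjusted p = 0.0027), or 1.96-fold less in the high fraction, and it was -0.64 on the values as deposited (adjusted p = 0.052). The averaged index was smaller with replicates 2 and 3 only, at -0.56 (adjusted p = 0.00075), and that on 0.25% YE was -0.28. Without replicate 1 of the low fraction alone, the index on 0.25% YE was -0.41.

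Prosbeta5R1 is a copy of Prosbeta5, the subunit with chymotrypsin-like activity. Its values on 0.25% YE were 118, 58.8 and 33.2 in the high and 224, 141 and 92.8 in the low fraction, and on 4% YE 146, 91.3 and 102 in the high and 163, 139.9 and 129 in the low fraction. Replicate 1 was the brightest array in all 4 groups, and through it the ranges overlapped on both diets. The averaged index was -0.79 ± 0.29 (adjusted p = 0.044), with -1.21 ± 0.42 on 0.25% YE (adjusted p = 0.056) and -0.37 ± 0.42 on 4% YE (adjusted p = 0.52). Of the 6 averaged calls this was lost most often, in 13 of 19 alternatives, 9 of which left out 1 array (adjusted p = 0.062 to 0.102): replicate 2 or 3 of the high or 1 or 2 of the low fraction on 0.25% YE, and replicate 2 or 3 of the high or any 1 of the low fraction on 4% YE. On the values as deposited it was -0.44 (adjusted p = 0.38), and median scaling gave -0.71 (adjusted p = 0.070). On 0.25% YE the index of Prosbeta5R1 was called once replicate numbers were blocked (adjusted p = 0.0054), without replicate 1 of the high fraction (-1.67, adjusted p = 0.0072) and without replicate 3 of the low fraction (-1.52, adjusted p = 0.030).

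The ATPase paralogs Rpt3R and Rpt4R both had averaged indices above 0. Rpt4R measured 58.8, 96.0 and 71.9 in the high fraction on 0.25% YE and 39.0, 45.2 and 70.0 in the low fraction. On 4% YE it measured 103, 87.0 and 86.9 in the high and 38.7, 69.4 and 65.9 in the low fraction. Only on 4% YE did all high-fraction arrays exceed all low-fraction arrays. The averaged index was 0.63 ± 0.21 (adjusted p = 0.025), with 0.56 ± 0.29 on 0.25% YE (adjusted p = 0.19) and 0.70 ± 0.29 on 4% YE (adjusted p = 0.083, and 0.044 once replicate numbers were blocked). The averaged call was lost without replicate 2 of either fraction on 0.25% YE or replicate 1 of either fraction on 4% YE (adjusted p = 0.051 to 0.070).

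Rpt3R gave 157, 209 and 133 in the high fraction on 0.25% YE and 95.7, 152 and 192 in the low fraction, ranges that overlapped. On 4% YE it gave 220.5, 213 and 179 in the high and 123, 156 and 151 in the low fraction, without overlap. Its averaged index of 0.36 ± 0.19 was not called (adjusted p = 0.14), nor was that on 0.25% YE (0.21 ± 0.27, adjusted p = 0.60) or on 4% YE (0.51 ± 0.27, adjusted p = 0.16). The averaged index of Rpt3R was 0.16 with replicates 2 and 3 only, and that of Rpt4R on 4% YE was 0.36. By array ranges, 3 of the 9 paralogs lay lower in the high fraction without overlap on 0.25% YE (Prosalpha4T2, Prosbeta2R2 and Prosbeta4R1), where 17.3% of all probe sets did. On 4% YE the same 3 did so, where 27.5% of all probe sets did, and Rpt3R and Rpt4R lay higher without overlap, as 27.2% of all probe sets did.

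The parent subunits all lay toward the high fraction. The averaged index of the 8 parents ran from 0.53 ± 0.17 for Prosalpha3 (adjusted p = 0.025) to 1.56 ± 0.20 for Rpt3 (adjusted p = 0.00011), with a median of 1.14. All 8 parents were called higher, where 23.1% of all probe sets were. Several of these sizes rested on replicate 1: with replicates 2 and 3 only, Prosalpha3 was at 0.26, Prosbeta4 at 0.51, Prosbeta2 at 0.64 and Prosalpha6 at 0.75, all 8 parents still being called at a background of 70.6%. The call of Prosalpha3 was lost without replicate 2 of the high fraction on 0.25% YE, or without replicate 1 of the high or replicate 3 of the low fraction on 4% YE (adjusted p = 0.051 to 0.059). Prosalpha4, parent of Prosalpha4T2, shows the contrast: on 0.25% YE it measured 980.2, 1439 and 1089.6 in the high and 283, 569.5 and 908 in the low fraction. On 4% YE it measured 1293, 1212 and 1202 in the high and 499, 901 and 715 in the low fraction. Its high-fraction arrays lay above its low-fraction arrays without overlap, the reverse of Prosalpha4T2. Of all probe sets, 16.1% on 0.25% YE and 27.2% on 4% YE lay higher in the high fraction without overlap. Prosbeta2 measured 3032, 2606 and 1829 in the high and 534, 1236 and 1716 in the low fraction on 0.25% YE, and 3713, 2007 and 2203 in the high and 1097, 1429.9 and 1168 in the low fraction on 4% YE, again without overlap.

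**Figure D2:**
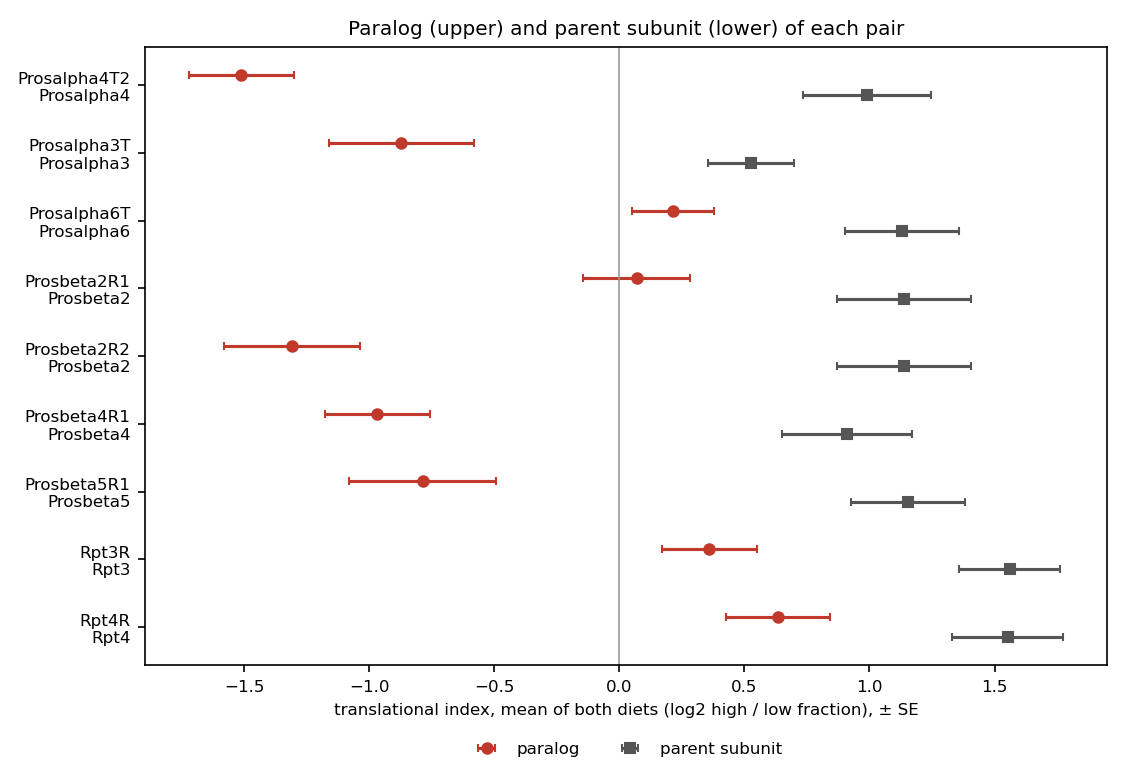
Translational index averaged over both diets (horizontal axis, log2 of high over low fraction) of each tested paralog (red circles, upper of each pair) and its parent subunit (grey squares, lower), with bars of ± 1 SE. The parents lie between 0.53 and 1.56, and each paralog lies to the left of its parent.

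Each of the 9 paralogs had a lower index than its own parent. The difference of the averaged indices, paralog minus parent, was -2.50 ± 0.38 for Prosalpha4T2, -2.45 ± 0.47 for Prosbeta2R2, -1.94 ± 0.54 for Prosbeta5R1 and -1.88 ± 0.50 for Prosbeta4R1 (SE over 12 arrays). It was -1.40 ± 0.31 for Prosalpha3T, -1.20 ± 0.11 for Rpt3R, -1.07 ± 0.16 for Prosbeta2R1, and -0.92 for both Rpt4R (± 0.17) and Prosalpha6T (± 0.33). The median of the 9 differences was -1.40. By an exact two-sided permutation test of the fraction labels within each diet (400 relabellings), 7 pairs reached 0.005, the smallest p this test can give, Prosalpha3T had p = 0.01 and Prosalpha6T had p = 0.025. This permutation ignores any pairing of arrays by replicate number. How many of all probe sets reach 0.005 was not counted. Rpt3R and Rpt4R, whose own averaged indices were above 0, were also lower than Rpt3 and Rpt4. The array-wise differences did not overlap between fractions on either diet for these and the other pairs, with 2 exceptions. These were Prosalpha3T on 4% YE and Prosalpha6T on 0.25% YE. The share of all probe sets without such overlap beside these parents was not computed.

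These counts have to be read against what any probe set shows beside parents that lay so far toward the high fraction. Counted here are probe sets with a lower index than the parent at an exact p under 0.05 in the same permutation test. They made up 46.4% of all probe sets tested beside Prosalpha3, 56.4% beside Prosbeta4, 60.3% beside Prosalpha4, 66.9% beside Prosbeta2, 70.9% beside Prosalpha6 and 71.9% beside Prosbeta5. For the ATPases the share was 86.9% beside Rpt4 and 87.5% beside Rpt3, so most probe sets passed the same test beside these parents. The placement of each paralog among all probe sets tells them apart more. This is the share of probe sets with a lower averaged index, with no threshold on p. It was 2.62% for Prosalpha4T2, 4.61% for Prosbeta2R2, 10.8% for Prosbeta4R1, 13.2% for Prosalpha3T and 15.7% for Prosbeta5R1. It was 52.7% for Prosbeta2R1, 60.2% for Prosalpha6T, 67.3% for Rpt3R and 79.6% for Rpt4R. With replicates 2 and 3 only, all 9 differences from the parent stayed below 0, from -2.43 for Prosalpha4T2 to -0.34 ± 0.21 for Prosalpha6T and with -1.08 ± 0.19 for Prosbeta4R1, a setting in which the exact permutation test cannot go below p = 0.056. The pair Prosalpha6T and Prosalpha6 missed 0.05 without replicate 1 or 2 of the high or replicate 1 of the low fraction on 0.25% YE (-0.79, -0.92 and -0.68, exact p = 0.055 to 0.07), and its p was 0.094 with the labels permuted within replicate numbers, where 0.031 is the smallest possible. In that paired permutation the other member pairs were all at 0.031.

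Beyond the parents, the other proteasome subunits also had more members higher than lower in the high fraction, where 23.1% of all probe sets were called higher and 23.6% lower. Of the 6 measured core-particle (20S) subunits that are no parents, 3 were higher and 0 lower (median averaged index 0.46), among them Prosalpha7 at 1.10 ± 0.14 (adjusted p = 9.5e-05). Both measured 19S ATPases other than Rpt3 and Rpt4 were higher (Rpt2 at 1.59 and Rpt5 at 1.41). Of 11 measured 19S non-ATPase subunits 9 were higher, with Rpn3 at 1.71 ± 0.16, and 1 was lower, the small subunit Sem1 at -1.42. Of the 9 measured assembly factors and regulators 2 were higher, a share near that of all probe sets, and 0 lower (median 0.10), the 2 being Rad23, a shuttle for ubiquitinated proteins (1.21 ± 0.25), and Usp14, a proteasome-bound deubiquitinase (0.82 ± 0.18).

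Testis markers were mixed in the same contrast. Of the 26 tested 11 were lower and 5 higher in the high fraction, with a median of -0.39, and 23.6% of all probe sets were lower and 23.1% higher. The sperm-tail genes Mst84Dc (-1.16 ± 0.13) and Mst87F (-0.96 ± 0.12) were lower, and betaTub85D, the testis beta-tubulin, was higher (0.79 ± 0.10). The summed intensity of the 28 measured testis markers was 17505 to 23519 in the high and 23520 to 30607 in the low fraction on 0.25% YE, and 14563 to 20454 in the high and 17216 to 24947 in the low fraction on 4% YE. Such a sum mostly follows the brightest probe sets: means over all arrays ran from 12.3 for bam to 2463 for ocn. Of the 14 accessory gland markers, genes of a male tissue other than the testis, 10 were lower and 1 was higher (median -0.85), with summed intensities of 32197 to 44245 in the high and 51292 to 60549.7 in the low fraction on 0.25% YE and 37558 to 40642 in the high and 55300.2 to 56573 in the low fraction on 4% YE. The part of either marker list in the paralogs' indices was not tested.

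**Figure D3:**
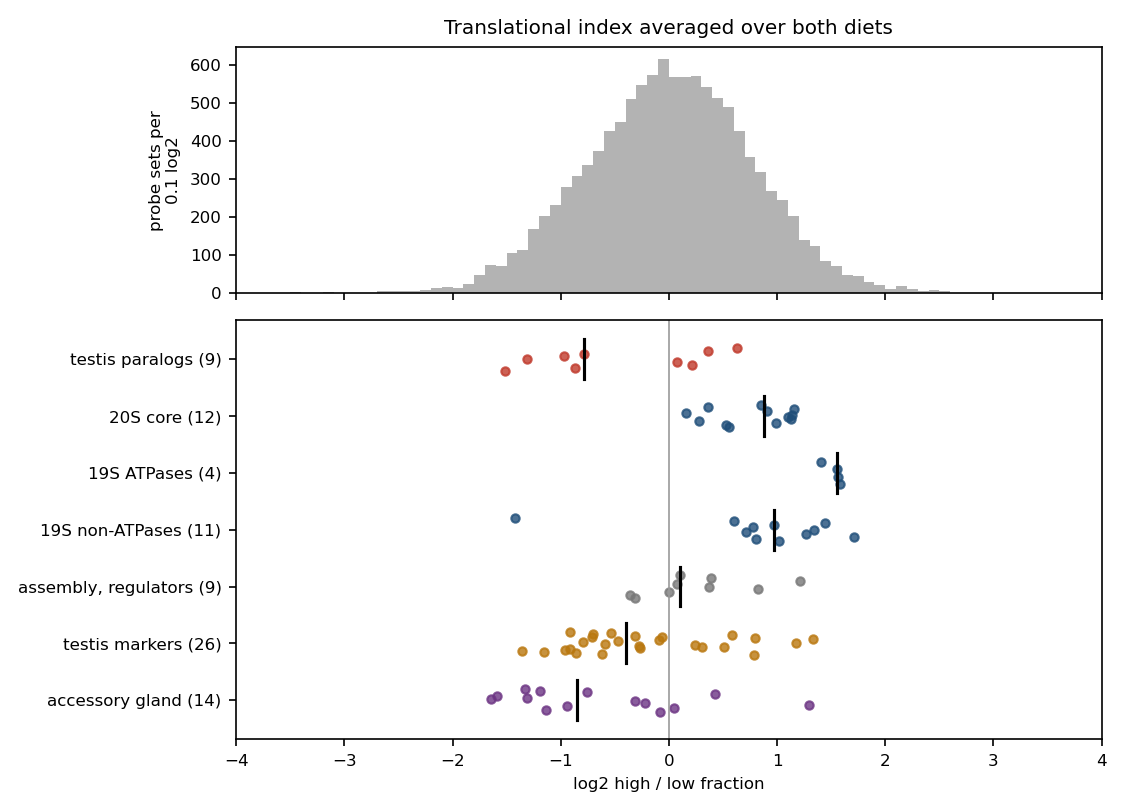
Upper plot: number of probe sets per 0.1 log2 of the averaged translational index, all 11262 tested. Lower plot: the averaged index (log2 of high over low fraction) of single genes in 7 lists, with the number tested in brackets and black lines at the medians; the paralogs spread from -1.51 to 0.63, and the 20S and 19S subunits lie right of 0 apart from Sem1.

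Diet did not move any paralog past the threshold. In limma 0 of 9 paralogs were called for the diet difference (0.25% YE over 4% YE) in the high fraction, where 1.77% of all probe sets were called, 0 in the low fraction (0.968%) and 0 averaged over fractions (4.13%). At an unadjusted p under 0.05 the counts were also 0. In the high fraction the differences ran from -0.84 ± 0.42 for Prosbeta5R1 (adjusted p = 0.41) to 0.29 ± 0.23 for Prosalpha6T (adjusted p = 0.68). In the low fraction they ran from -0.57 ± 0.30 for Prosbeta2R1 (adjusted p = 0.66) to 0.21 ± 0.30 for Prosalpha4T2 (adjusted p = 0.92). With replicates 2 and 3 only, Prosbeta5R1 in the high fraction was at -1.11 (adjusted p = 0.010) and Prosalpha6T at 0.51 (adjusted p = 0.041), at a background of 22.1%. Averaged over fractions Prosbeta5R1 was then at -0.67 (adjusted p = 0.020), at a background of 22.2%.

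The diet differences averaged over fractions stand here beside those of the parents, and the differences between the members of a pair were not tested. That of Prosalpha4T2 was 0.02 ± 0.21, against -0.24 ± 0.26 for Prosalpha4. Prosalpha3T had 0.13 ± 0.29 against -0.14 ± 0.17 for Prosalpha3, and Prosalpha6T had 0.10 ± 0.16 against -0.17 ± 0.23 for Prosalpha6. In the beta ring Prosbeta2R1 was at -0.36 ± 0.21 and Prosbeta2R2 at -0.21 ± 0.27, beside -0.15 ± 0.27 for Prosbeta2, and Prosbeta4R1 was at -0.08 ± 0.21 beside -0.18 ± 0.26 for Prosbeta4. Prosbeta5R1 was at -0.42 ± 0.29, the lowest of the 9, beside -0.08 ± 0.23 for Prosbeta5. Rpt3R was at -0.17 ± 0.19 beside -0.09 ± 0.20 for Rpt3, and Rpt4R was at -0.24 ± 0.21 beside -0.14 ± 0.22 for Rpt4. None of these values was called, and the sign of those for Prosalpha4T2, Prosalpha3T, Prosbeta4R1 and Rpt3R depended on the setting. The 9 paralogs had a median averaged diet difference of -0.17. The testis markers had a median of 0.14, with 1 of 26 higher and 0 lower. Over all probe sets tested the median was 0.035, with 1.23% higher and 2.9% lower. In the high fraction the medians were -0.16 for the paralogs, 0.17 for the testis markers and 0.02 for all probe sets. In the low fraction they were -0.09, 0.30 and 0.03. The difference between paralogs and testis markers was not tested.

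**Figure D4:**
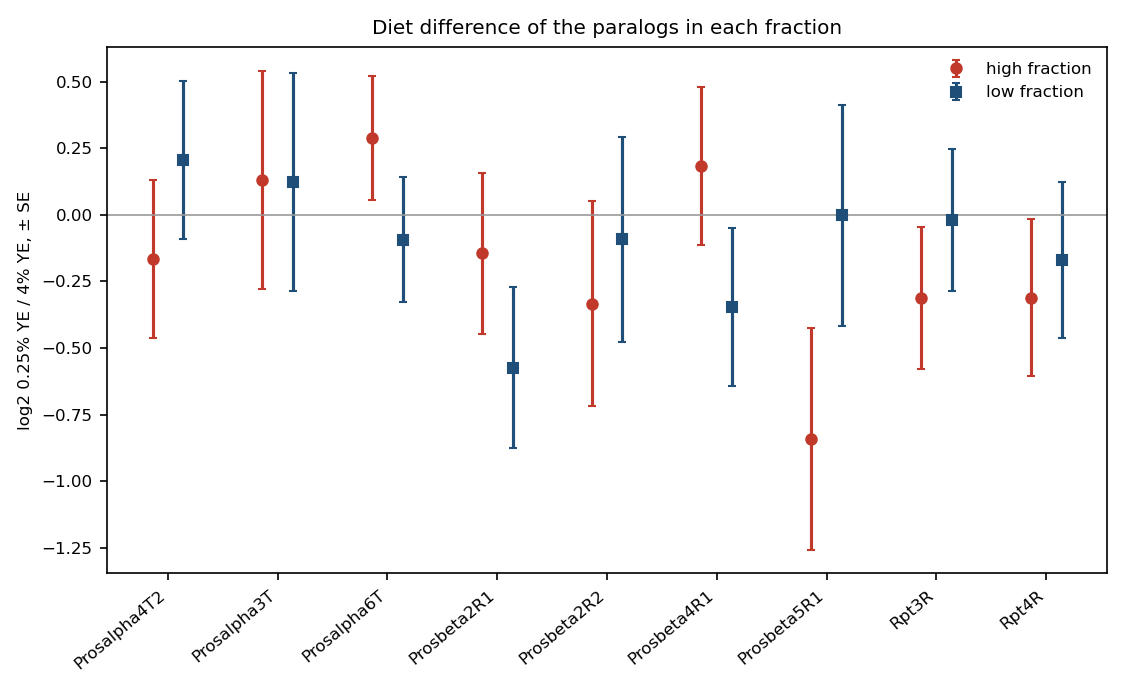
Diet difference (vertical axis, log2 of 0.25% YE over 4% YE) of the 9 tested paralogs in the high fraction (red circles) and the low fraction (blue squares), with bars of ± 1 SE. The values run from -0.84 for Prosbeta5R1 in the high fraction to 0.29 for Prosalpha6T in the high fraction, and none was called.

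The change of the index with diet, the quantity the study set out to evaluate, was also called for 0 of 9 paralogs in limma, with 0 at an unadjusted p under 0.05. Over all probe sets 1 was called (0.00888%). The changes ran from -0.84 ± 0.59 for Prosbeta5R1 to 0.53 ± 0.42 for Prosbeta4R1, and 0 paralogs were called in any of the 19 alternatives.

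Further testis-enriched proteasome paralogs were measured beside the 10. Prosbeta4R2, which lies on the same chromosome as Prosbeta4R1 with 1 gene between them in the RefSeq table, was above background on 2 of 12 arrays and was not tested. Prosbeta5R2, a further copy of Prosbeta5, had an averaged index of -0.29 ± 0.26 (adjusted p = 0.38), and Rpn12R, a copy of the regulatory subunit Rpn12, had 0.36 ± 0.27 (adjusted p = 0.29). Both were lower than their parents, by -1.44 ± 0.38 for Prosbeta5R2 (exact permutation p = 0.005) and -1.08 ± 0.35 for Rpn12R (exact permutation p = 0.01). At an exact permutation p under 0.05, 71.9% and 78.5% of all probe sets were lower than Prosbeta5 and Rpn12. The probe set of Rpn12R has a suffix that marks probes shared between transcripts, as has that of Prosbeta5, and the probe set of Rpt3R has one that marks transcripts of 1 gene. Rpt6R was not analysed here.

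The genes whose pattern over the 12 arrays was most like each paralog were found by the root-mean-square difference of log2 values centred on each gene's mean. For Prosalpha4T2 these were CG30357 (0.21) and CG31546 (0.22). For Prosbeta2R2 they were CG13442 (0.20) and CG31068 (0.22), and for Prosbeta4R1 they were CG17163 (0.16) and CG14841 (0.17). Prosbeta5R1 was nearest to Mical (0.17) and CG6664 (0.20), and Prosalpha3T to Jhbp6 (0.28) and CG5556 (0.29). Prosalpha6T lay nearest to Nuf2 (0.12) and Scsalpha2 (0.14), Prosbeta2R1 to imd (0.17) and fs(2)ltoPP43 (0.17), Rpt3R to Tat (0.13) and Phb1 (0.13), and Rpt4R to Nurf-38 (0.16) and CAHbeta (0.17). The difference from the own parent was 1.38 for Prosalpha4T2, 0.84 for Prosalpha3T, 0.68 for Prosalpha6T, 1.40 for Prosbeta2R2, 1.18 for Prosbeta4R1, 1.28 for Prosbeta5R1 and 0.62 for Rpt3R, each above the paralog's median difference from all probe sets (0.55 to 0.92). For Prosbeta2R1 (0.60 against a median of 0.63) and Rpt4R (0.52 against 0.64) the parent lay nearer than the median probe set. All points share the 12 arrays and their scaling, and the nearest of 10042 probe sets with 1 symbol is close by construction.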

How the data were processed

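The authors deposited linear intensities per probe set for 12 single-channel Affymetrix arrays, each made from 100 ng of RNA labelled with biotin, per the labels' protocols. Deposited medians of 38.7 to 93.9, with 9.51% to 13.8% of values below 0, showed no common scale. How probes were summarised, and whether background was subtracted, is not given in the sources used here. Groups came from the titles, and the series text calls the replicates individual biological replicates. No 2 arrays were identical (0 pairs).

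The 100 controls among 18869 probe sets served only for background. Symbols came from the platform annotation (13647 with 1 symbol, 402 with several, 4720 with none), and 13544 of the first matched the RefSeq table. Values were quantile-normalized over the 12 arrays, set to 0 where negative, and transformed as log2(value + 1). The 40% with the lowest mean (under 23.6) were left out, leaving 11262. One model with 4 group means (8 residual degrees of freedom) was fitted with lmFit and eBayes (trend) in limma 3.58.1 under R 4.3.3, with 7 contrasts, and tested on simulated data. Paralog minus parent was tested by exact permutation of fraction labels within diet.

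The members and lists were chosen with earlier results of these data known. Named genes were the members, their parents, the other testis paralogs, the 2 most similar genes per member, and up to 3 genes of smallest p per list. Sem1 and Rpt5 were named after their values were seen. Same-numbered arrays deviated together in 12 of 12 direct pairs (r = 0.166 to 0.669, each over 0.1), so the numbers were used as a block in an alternative. The main limma fit and the main permutation test do not use this pairing, nor do the SE values given with them. Number 1 stood apart (r = -0.620 to -0.114 with other numbers), whereas numbers 2 and 3 also correlated with each other (r = 0.015 to 0.577, in 3 of 8 comparisons above that of the same number), so that 2 and 3 are not told apart. The first 4% YE replicate has no number in its title and was called 1. Alternatives were unscaled values, median scaling, a pseudocount of 16, no filter or a 20% filter, the replicate block, each array left out, and replicates 2 and 3 only.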

Additional observations from a re-analysis of the deposited data

How the results depend on the processing

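The number of arrays, 3 per group, limits the precision of all values, and Prosalpha3T and Prosalpha4T1 lay near the background. Counts of paralogs called moved as follows. For the index on 0.25% YE, 2 became 0 on the values as deposited, 1 without a filter on low values and 6 with replicates 2 and 3 only (57.5% of all probe sets), and 1 to 4 when 1 array was left out. On 4% YE, 3 became 0 as deposited and 2 to 3 with 1 array left out. The averaged index gave 4 (2 lower, 2 higher) as deposited, 7 with replicates 2 and 3 only and 3 to 6 with 1 array left out, the lowest without replicate 2 of the low fraction on 0.25% YE. With replicates 2 and 3 only, the diet difference gave 2 in the high fraction and 1 averaged (22.1% and 22.2% of all probe sets), the 1 being Prosbeta5R1 at -0.67. As deposited, all probe sets split into 3459 higher and 854 lower in the averaged index, against 2601 and 2654, with medians of 0.36 averaged, 0.41 on 0.25% YE and 0.32 on 4% YE. Over all probe sets the index on 0.25% YE was called for 2409, and for 3932 with the replicate block; beside the report's values the block changed no other call of a paralog.

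Signs turned as follows. As deposited, the index of Prosbeta2R1 on 4% YE was 0.19 and the averaged diet differences of Prosbeta4R1 and Rpt3R were 0.11 and 0.032, each below the median of all probe sets (0.32 and 0.18). Median scaling put the averaged diet difference of Prosalpha4T2 at -0.0051. With replicates 2 and 3 only, the index on 0.25% YE was -0.0095 for Prosbeta2R1 and -0.035 for Rpt3R, the averaged index of Prosbeta2R1 was -0.16, and the averaged diet difference was -0.13 for Prosalpha4T2 and -0.054 for Prosalpha3T. With 1 array left out, the index ran from -0.060 to 0.065 for Prosalpha6T on 4% YE, from -0.042 to 0.64 for Prosbeta2R1 and -0.064 to 0.44 for Rpt3R on 0.25% YE, and from -0.094 to 0.25 averaged for Prosbeta2R1. The averaged diet difference ran from -0.14 to 0.11 for Prosalpha4T2, -0.079 to 0.29 for Prosalpha3T and -0.23 to 0.0053 for Prosbeta4R1. None of these sign changes was in a called value, and the cause was not tested. All 9 differences between paralog and parent kept their sign in all settings run. The next brightest probe set could not be tried, since each named gene had 1.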
